A study of Homo sapiens with 7 samples.

Results

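The transcriptional response of RL cells to 6 h of a BTK inhibitor was described from 4 of the 7 RNA-seq libraries of the series, 2 from control cells and 2 from treated cells. These libraries are all those the labels assign to RL, and each of the 22257 genes in the read table was represented by its transcript with the highest mean read number over the 4 libraries. Of these genes, 14933 had enough reads to be tested. The remaining 3 libraries come from JeKo-1 cells under the same agent, 1 control and 2 treated, and were used only to ask where the RL response differed. RL is an established human B-cell line that the labels place with mantle cell lymphoma, a lymphoma usually driven by cyclin D1. Control cells received no agent according to the labels, and whether they were given vehicle is not given in the sources used here, nor is the dose. The series title names the inhibitor as ibrutinib, which binds BTK covalently. All 4 libraries come from one cell line, and no label tells whether the 2 of a group were grown as separate cultures; p-values therefore rest on the spread between library pairs that could be technical repeats.

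Bruton's tyrosine kinase (BTK) sits below the B-cell receptor (BCR). Once the receptor is engaged, SYK and the adaptor BLNK link BTK to phospholipase C gamma, which BTK activates. The second messengers that follow release calcium, which activates calcineurin and NFAT factors, and diacylglycerol, which feeds the RAS-ERK cascade and, through protein kinase C, NF-kB. Several products of these routes feed back on them: EGR factors induce their own corepressors, ERK induces the dual-specificity phosphatases and Sprouty proteins that shut it off, and NF-kB induces its inhibitor NFKBIA. Many lymphomas of mature B cells depend on this signalling, which is why BTK became a drug target.

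The libraries held 24.2 and 25.9 M reads in the controls and 19.1 and 33.5 M in the treated cells, counted once per gene. Within a group, reads scattered more than counting error alone allows, with a chi-square per degree of freedom of 3.41 in the controls and 4.55 in the treated libraries. Levels are given as CPM, read counts scaled to a common library size, first for control libraries 1 and 2 and then for treated libraries 1 and 2, and fold changes as log2 of treated over control with a standard error after ±. The mantle cell lymphoma markers were present in all 4 libraries: CCND1, the cyclin D1 gene, at 1038 and 994 CPM in the controls, the transcription factor SOX11 at 301 and 273 CPM, and the surface glycoprotein CD5 at 32.9 and 30.3 CPM. The 10 B-cell markers summed to between 4869 and 5746 CPM. Markers of other cells were low, with summed levels of 2.57 to 3.58 CPM for 12 T and NK cell genes (2 of them at 0 in every library), 4.23 to 5.25 CPM for 10 myeloid genes (6 at 0) and 0.420 to 0.705 CPM for 5 erythroid genes (1 at 0). Of the 6 testable T, NK or myeloid genes, 0 were called in edgeR, DESeq2 or limma-voom, and 1 T or NK gene and 1 myeloid gene were higher at an unadjusted p under 0.05. The sum of 10 epithelial and stromal genes lay between 159.7 and 170.9 CPM, nearly all from EPCAM, an adhesion molecule that stood at 142 and 137 CPM in the controls and 149 and 144 CPM in the treated libraries.

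Treatment changed many genes, most of them by little. In the quasi-likelihood test of edgeR, with p-values adjusted after Benjamini and Hochberg over all genes, 4563 of 14933 genes (30.6%) had an adjusted p under 0.05, the threshold for a call throughout. Of these, 2255 were higher (15.1%) and 2308 lower (15.5%) in treated cells. Only 232 were at least 2-fold higher (1.55%) and 202 at least 2-fold lower (1.35%), so that 90.5% of the called genes changed by less than 2-fold, with a median absolute log2 change of 0.37. The median over all tested genes was 0.01. In all but 4 called genes both treated libraries lay on one side of both controls. Calls were more frequent and changes smaller where reads were many: 42.1% of genes averaging over 100 CPM were called, with a median absolute change of 0.27, against 9.64% of genes under 1 CPM, with a median of 1.49. In cultured cells measured in bulk, fewer cells expressing a gene and less of its RNA per cell cannot be told apart.

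**Figure D1:**
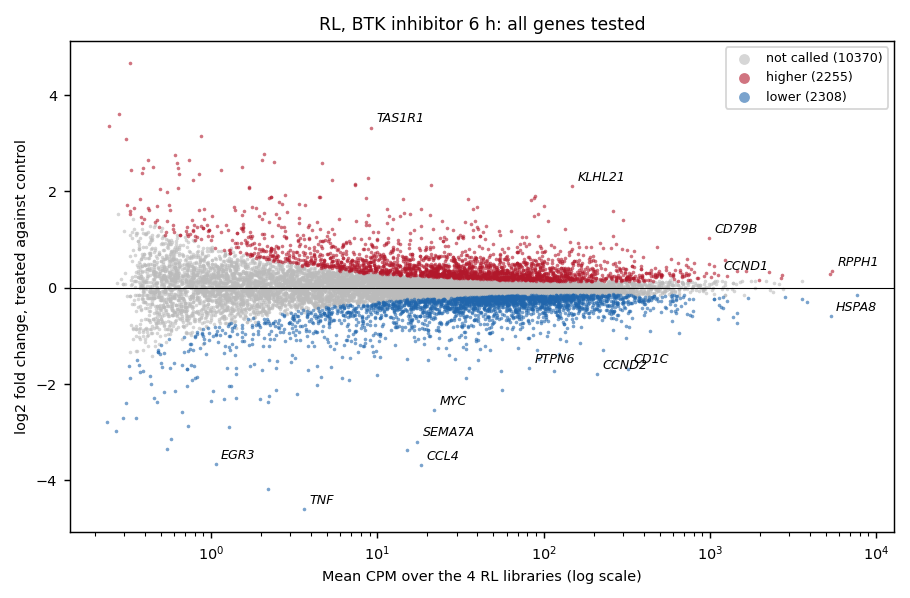
Each point is 1 of the 14933 genes tested in RL, with its mean CPM over the 4 libraries on a log scale across and its log2 fold change (treated against control) upward; red points were called higher (2255), blue points lower (2308) and grey points neither. The widest changes sit at low levels, and the labelled EGR3, TNF, CCL4, SEMA7A and MYC lie well below the band of called genes at their level.

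At a mean of at least 5 CPM, the 15 called genes with the largest falls held secreted signals, surface molecules of activated B cells and growth regulators. The chemokine CCL4 stood at 33.1 and 34.9 CPM in the controls and 2.62 and 2.66 CPM after treatment. SEMA7A, a membrane-anchored semaphorin, stood at 32.4 and 30.5 and 2.83 and 3.81 CPM, and the growth-driving transcription factor MYC at 40.4 and 35.2 and 5.98 and 6.77 CPM. In each of these the treated libraries lay far below both controls and close to each other, with log2 fold changes of -3.68 ± 0.11, -3.19 ± 0.12 and -2.55 ± 0.10. BCL2A1, an anti-apoptotic BCL2 relative, went from 84.8 and 97.4 to 19.8 and 21.8 CPM. CCND2, the cyclin D2 gene, had 326 and 326 CPM in the controls and 93.9 and 93.8 CPM in the treated libraries, with nearly equal replicates (-1.80 ± 0.05). The other D cyclins were called higher: CCND1 went from 1038 and 994 to 1231 and 1203 CPM (0.26 ± 0.05), and CCND3 rose by 0.50 ± 0.10. The lipid-presenting molecule CD1C fell from 478 and 508 to 160.5 and 148 CPM, and PTPN6, which encodes the phosphatase SHP-1, from 124 and 125 to 38.6 and 39.4 CPM. The 15 also held membrane transporters of monocarboxylates and cationic amino acids, SLC16A9 (-1.92) and SLC7A2 (-1.87), and HIVEP3, a zinc-finger protein that binds NF-kB-like sites (-1.66). Genes could enter the 15 only where no control library overlapped a treated one. The adjusted p of the 15 ran from 8.56e-11 for CCL4 to 5.38e-07 for SLC7A2.

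The 15 largest rises at that level were a mixed group with few known B-cell genes. TAS1R1, a subunit of the umami taste receptor, had 1.62 and 1.66 CPM in the controls and 17.9 and 15.3 CPM after treatment, from 39 and 43 to 341 and 519 reads (3.32 ± 0.15). KLHL21, a substrate adaptor of a cullin ubiquitin ligase, went from 58.5 and 53.6 to 263 and 219.6 CPM (2.10 ± 0.08), so that the treated libraries were well above both controls. The fructose transporter SLC2A5 rose from 37.3 and 37.2 to 134 and 128 CPM and the tetraspanin CD9, an organiser of membrane protein complexes, from 52.1 and 42.6 to 159 and 147 CPM. CNPY1, of the Canopy family, had 15.9 and 14.6 CPM in the controls and 54.7 and 54.7 CPM in the treated libraries, and KCNH2, the hERG potassium channel, had a log2 fold change of 1.68 ± 0.08. As among the falls, groups without overlap were a condition of the choice. The adjusted p of these 15 ran from 1.94e-10 (SLC2A5) to 2.87e-06 (NRN1). Others were the secreted WNT antagonist SFRP5 (2.14), the serine protease TMPRSS13 (2.15), C16orf74 (2.24) and the neuronal surface protein NRN1 (1.86), whose controls differed from each other more than those of most, at 2.74 and 4.71 CPM.

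**Figure D2:**
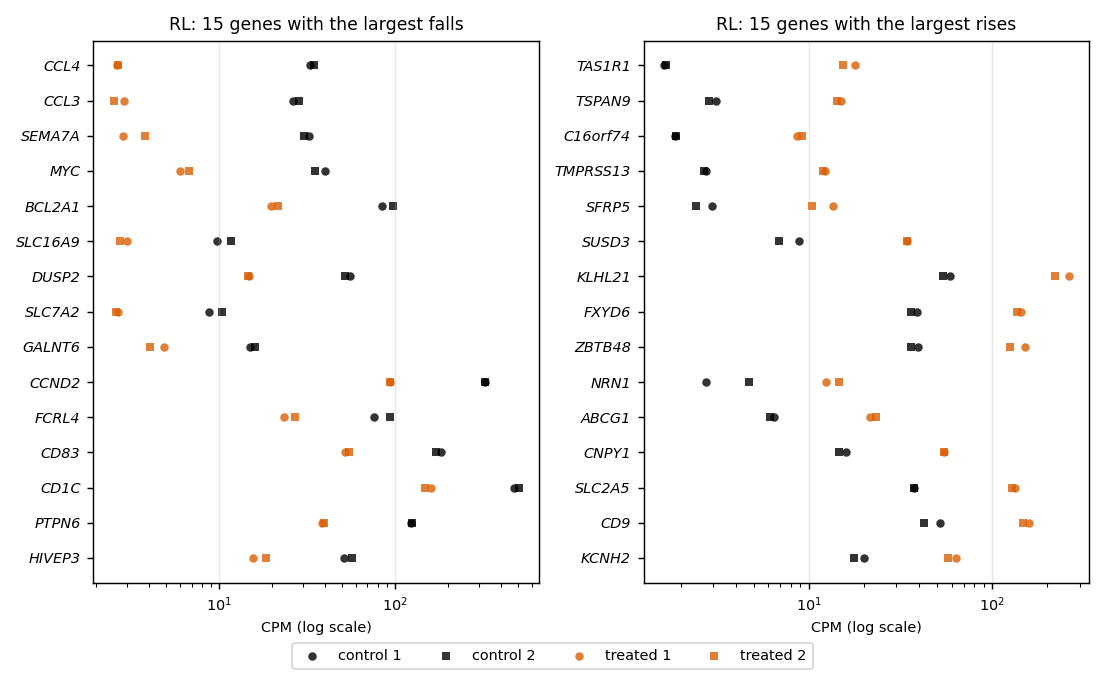
CPM on a log scale in each of the 4 RL libraries (controls black, treated orange; circles are library 1 and squares library 2 of a group) for the 15 called genes with the largest falls (left) and rises (right) at a mean of at least 5 CPM. Only genes with separate black and orange symbols could be chosen. Replicates nearly coincide for CCND2, CCL4 and SLC2A5, while NRN1 and SFRP5 spread more.

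EGR factors and genes that ERK induces to restrain itself were among the falls, several of them at low read numbers. Of the 5 testable EGR and NAB genes, 4 fell and 0 rose in edgeR, with a median log2 change of -1.63. Of all genes 15.5% were lower and 15.1% higher. EGR3, a zinc-finger factor induced by antigen receptors, had 38 and 61 reads in the controls and 4 and 4 in the treated libraries (-3.66 ± 0.42), and NAB2, the corepressor that EGR factors induce, went from 24.4 and 26.4 to 13.1 and 14.8 CPM (-0.85 ± 0.09), with no overlap of the groups. NAB1, its constitutive relative, was not called, and EGR4 had at most 4 reads in a library and was not tested. Of 18 ERK feedback genes, 11 fell (61.1%) and 0 rose, with a median of -0.77. They included the ERK phosphatases DUSP4 (23 and 15 against 2 and 6 reads, too few for an adjusted p in DESeq2) and DUSP6 (8.30 and 8.42 against 4.67 and 4.91 CPM), the JNK and p38 phosphatase DUSP10 (14 and 14.1 against 4.72 and 5.59 CPM) and the receptor-pathway inhibitor SPRY2 (47 and 59 against 11 and 16 reads). ETV4 and ETV5, ETS factors that ERK signalling induces, fell by 1.06 ± 0.12 and 1.03 ± 0.15 on the log2 scale, and the Sprouty-related SPRED1 and SPRED2 by 0.96 ± 0.14 and 0.93 ± 0.18. In all 11 the treated libraries lay below both controls. In both lists 0 genes were higher in DESeq2 or limma-voom, or in edgeR at an unadjusted p under 0.05.

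Secreted cytokines and chemokines were also among the falls. Of 21 testable genes 15 fell and 2 rose, TNFSF4 and CXCL16, with a median of -0.67, against 15.5% lower and 15.1% higher over all genes. TNF, the inflammatory cytokine, had 189 and 158 reads in the controls and 2 and 13 after treatment (-4.60 ± 0.30), and the anti-inflammatory IL10, made by activated B cells, 107 and 103 and 3 and 9 (-4.19 ± 0.29). IL6 had 25 and 33 and 3 and 7 reads, and lymphotoxin alpha (LTA), a relative of TNF, 55 and 62 and 11 and 14. These 4 cytokines thus kept a small part of their reads in both treated libraries, and treated library 2, the deepest, still held fewer than either control. Chemokines that draw T cells through CCR4 changed less, CCL22 from 728 and 734 to 440.4 and 471 CPM (-0.68 ± 0.05) and CCL17 from 248 and 248 to 218 and 220.0 CPM (-0.18 ± 0.05), the latter not called without control library 1 or 2 (adjusted p = 0.0585 and 0.0619). EBI3, a cytokine subunit, fell by 1.08 ± 0.07 on the log2 scale. The 2 rises rest on single libraries: without control library 1 neither was called, without control library 2 or treated library 2 CXCL16 alone was, and DESeq2's test called neither. CCL4L1 and CCL4L2, near-identical copies of CCL4, carried the same counts (29 and 26 and 6 and 12 reads), so reads may be shared among the copies, and DESeq2's test did not call them (adjusted p = 0.0550). CSF2 had no read in any library.

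Among NF-kB subunits and inhibitors, 10 of 15 fell (66.7%, against 15.5% of all genes) and 2 rose (13.3% against 15.1%), with a median of -0.32. The inhibitors of NF-kB that its activity induces led this group: NFKBIA, which holds RELA and REL in the cytoplasm, went from 124 and 126 to 65.5 and 63.7 CPM (-0.95 ± 0.05), and the nuclear inhibitor NFKBID from 47 and 47.5 to 21 and 21.3 CPM (-1.16 ± 0.07). The ubiquitin-editing brake TNFAIP3 (A20) went from 154 and 157 to 100.3 and 102 CPM and NFKBIZ, a nuclear coactivator for some NF-kB targets, from 114 and 109.9 to 90.7 and 88.9 CPM. The precursor subunits NFKB1 and NFKB2 fell by 0.73 ± 0.06 and 0.76 ± 0.06, whereas REL, the subunit prominent in B cells, rose by 0.28 ± 0.05, from 87.1 and 85.1 to 104 and 105 CPM. RELA, the p65 subunit, was not called, with a log2 change of -0.03 ± 0.07 at 41.4 and 43.1 and 42.1 and 40.5 CPM. In the promoter windows of these genes, the 250 bases before the start in RefSeq's GRCh38.p14 table, the NF-kB motif (GGGA, any base, then TTTCC) was searched on both strands. It was found in 5 of the 13 members with a window (38.5%) and in 62 of 11406 tested genes (0.544%). The share was 0.821% among called lower genes and 0.504% among called higher genes, so over all genes the motif was rare in each. The windows of 4 members that fell are shown 5′ to 3′ on the strand of the gene, because they carry the motif and the 4 genes moved the same way; capitals mark the motif. A match describes the letters of the window and was not tested as a binding site, and the read counts refer to hg19, from which no sequence was taken.
NFKBIA (chr14:35404750-35404999, minus strand, motif beginning 81 bases before the start): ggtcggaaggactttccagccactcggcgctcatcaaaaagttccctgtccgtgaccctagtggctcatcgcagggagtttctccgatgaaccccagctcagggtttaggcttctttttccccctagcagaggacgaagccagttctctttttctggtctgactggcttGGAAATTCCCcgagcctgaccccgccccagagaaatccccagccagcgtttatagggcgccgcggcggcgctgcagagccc
NFKB1 (chr4:102501109-102501358, plus strand, motif beginning 49 bases before the start): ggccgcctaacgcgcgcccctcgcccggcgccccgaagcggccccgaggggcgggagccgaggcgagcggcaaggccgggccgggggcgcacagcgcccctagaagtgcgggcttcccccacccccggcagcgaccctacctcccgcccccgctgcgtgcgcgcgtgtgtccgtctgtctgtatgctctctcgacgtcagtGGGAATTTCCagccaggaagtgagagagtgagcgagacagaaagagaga
TNFAIP3 (chr6:137867009-137867258, plus strand, motif beginning 67 bases before the start): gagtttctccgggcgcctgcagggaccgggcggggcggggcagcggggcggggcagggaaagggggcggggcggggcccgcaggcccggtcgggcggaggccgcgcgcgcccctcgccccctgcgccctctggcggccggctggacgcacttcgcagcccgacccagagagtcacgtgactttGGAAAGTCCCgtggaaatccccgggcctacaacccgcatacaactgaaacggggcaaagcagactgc
NFKBIZ (chr3:101827740-101827989, plus strand, motif beginning 223 bases before the start): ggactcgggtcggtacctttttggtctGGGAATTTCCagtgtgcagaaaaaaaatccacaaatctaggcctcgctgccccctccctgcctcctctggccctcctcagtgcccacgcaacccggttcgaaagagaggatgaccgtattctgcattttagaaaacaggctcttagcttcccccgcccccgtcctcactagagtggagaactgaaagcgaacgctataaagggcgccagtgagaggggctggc
The fifth member with the motif was REL, which rose.

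The signalling adaptors TRAF1, itself an NF-kB target, and TRAF5 fell. TRAF1 went from 45.1 and 46.1 to 21 and 23.4 CPM (-1.03 ± 0.08), and TRAF5 had a log2 fold change of -0.57 ± 0.11. On the calcium side, ORAI2, a pore subunit of store-operated calcium channels, rose from 154 and 149 to 292 and 282 CPM (0.92 ± 0.05). NFATC1, the NFAT factor that activates its own gene, fell from 3.61 and 4.36 to 1.78 and 2.51 CPM (-0.84 ± 0.20). In all, 3 of 16 calcineurin and NFAT genes rose (18.8%) and 4 fell (25%), not far from the 15.1% and 15.5% of all genes. Without control library 1 the falls numbered 2.

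Negative regulators of BCR signalling were among the genes that fell. Of 27 inhibitory receptors and phosphatases, 13 fell (48.1%) and 3 rose (11.1%), with a median of -0.20, where 15.5% of all genes were lower and 15.1% higher. CSK, the kinase that inactivates SRC-family kinases, went from 179.6 and 178 to 95.6 and 103 CPM (-0.85 ± 0.05), and PAG1, the membrane adaptor that recruits CSK, from 27.8 and 27.6 to 13 and 14.4 CPM (-1.002 ± 0.08). In both, the treated libraries were close to each other and below both controls. The Fc receptor-like family, which modulates BCR signals, was divided: FCRL4 fell from 75.8 and 94.2 to 23.6 and 27.2 CPM and FCRL5 from 351 and 373 to 222 and 226 CPM, while FCRL1 rose from 38.5 and 34.8 to 58.2 and 58.9 CPM and FCRL2 from 296 and 303 to 410.1 and 399 CPM. The sialic-acid receptor SIGLEC10 (-0.44 ± 0.05) and the inhibitory receptor LILRB4 (-0.67 ± 0.06) fell. PECAM1, an inhibitory adhesion receptor that is also an endothelial marker, rose from 2.12 and 1.70 to 4.93 and 4.82 CPM (1.35 ± 0.18).

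Of 29 PI3K pathway genes 11 rose (37.9%, against 15.1% of all genes), 2 fell (6.90% against 15.5%) and 16 were not called, with a median of 0.14. The rises numbered 6 without control library 1, 7 without control library 2 or treated library 2, and 3 in DESeq2's Wald test. PIK3CD, the catalytic subunit p110 delta of B cells, rose from 108 and 95 to 154 and 151 CPM (0.59 ± 0.06), with no overlap. PIK3IP1, a membrane inhibitor of PI3K, rose from 4.02 and 4.67 to 7.61 and 8.63 CPM (0.91 ± 0.14), and the kinase AKT1 by 0.26 ± 0.05. PIK3AP1, the BCAP adaptor that couples the BCR to PI3K, fell by 0.28 ± 0.05. The falls numbered 1 without control library 2 or treated library 1.

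Surface molecules through which B cells meet T cells and find their niches went both ways. Of 25 costimulation and antigen presentation genes 10 fell (40%) and 7 rose (28%), where 15.5% and 15.1% of all genes did. The rises numbered 4 without control library 2. CD83, a stabiliser of MHC class II and CD86 at the surface, fell from 184 and 171 to 52.1 and 55.3 CPM (-1.72 ± 0.06), the costimulatory receptor CD40 from 170.1 and 166 to 113 and 113 CPM (-0.57 ± 0.05) and CD80, a ligand of CD28 on T cells, from 59 and 59.6 to 42.7 and 42.6 CPM (-0.48 ± 0.06). The class II peptide loaders HLA-DMA and HLA-DMB rose by 0.70 ± 0.15 and 0.61 ± 0.09, the class II transactivator CIITA by 0.30 ± 0.08 (not called without control library 2, adjusted p = 0.0819) and the ICOS ligand ICOSLG by 0.60 ± 0.08, and SLAMF6, a homotypic adhesion receptor, rose from 25 and 23 to 76 and 111 reads (1.89 ± 0.23). Among 14 TNF receptor family genes 5 fell (35.7%) and 4 rose (28.6%): the activation-induced TNFRSF4 (OX40) and TNFRSF9 (4-1BB) fell, at 31 and 32 against 7 and 11 and 25 and 27 against 3 and 15 reads (TNFRSF9 not in DESeq2's test, adjusted p = 0.0782), and TNFRSF17 (BCMA), a survival receptor of plasma cells, rose from 32.7 and 31 to 45.2 and 46.1 CPM.

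Guidance receptors were also divided, with 7 of 18 higher (38.9%, against 15.1% of all genes) and 5 lower (27.8% against 15.5%). Without control library 1 there were 2 lower. The lymph node homing receptor CCR7 rose from 103 and 110.4 to 171 and 185 CPM (0.74 ± 0.06), whereas CXCR5, which draws B cells into follicles, fell from 97.6 and 102 to 59.8 and 63.7 CPM (-0.69 ± 0.06). The sphingosine phosphate receptor S1PR1, which guides exit from lymphoid tissue, rose by 0.22 ± 0.05 and the prostaglandin E2 receptor PTGER4 fell by 1.18 ± 0.11. Both treated libraries lay on one side of both controls in each of these genes. Among 25 semaphorins, plexins and tetraspanins 9 rose and 9 fell (36% each): the plexin receptor PLXND1 rose from 6.85 and 7.57 to 20.2 and 20.4 CPM (1.49 ± 0.10), PLXNC1, the receptor of SEMA7A, fell by 0.44 ± 0.09, the tetraspanin CD81 rose by 0.51 ± 0.05, the B-cell tetraspanin CD37 by 0.56 ± 0.05 and TSPAN9 by 2.29 ± 0.12, and CD82, which restrains cell motility, fell by 0.89 ± 0.09. Of 13 RGS and G protein regulators only GRK6, a receptor kinase (-0.39 ± 0.07), RGS19 (-0.30 ± 0.07) and GNAI2 (0.21 ± 0.05) were called (23.1%, against 30.6% of all genes). GNAI2 lost its call without control library 2 (adjusted p = 0.0791).

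In the network of MYC, its partner MAX and the opposing MXD proteins, 3 of 15 genes fell (20%) and 2 rose (13.3%), shares near the 15.5% and 15.1% of all genes. Beside the fall of MYC, MXD4, which competes with MYC for MAX, rose from 2.95 and 1.97 to 5.82 and 5.44 CPM (1.19 ± 0.18), and the MYC relative MYCN from 6.85 and 6.53 to 9.13 and 11.6 CPM (0.66 ± 0.13). Transcription factors of the B lineage split almost evenly, with 7 of 20 higher (35%) and 8 lower (40%). POU2AF1, the B-cell coactivator OBF1, rose from 41.1 and 36.3 to 88.8 and 87.3 CPM (1.19 ± 0.07) and IRF8, an interferon regulatory factor of B and myeloid cells, from 97.2 and 99.4 to 186 and 195 CPM (0.95 ± 0.05). MEF2C, a factor that acts downstream of BCR calcium signals, fell from 56.4 and 53.2 to 34.5 and 34.9 CPM (-0.66 ± 0.06), and the B-cell identity factor PAX5 from 125 and 124 to 92.1 and 91.6 CPM (-0.44 ± 0.05). In these 4 genes replicates differed by little and the groups did not overlap. Among 21 KLF and quiescence factors 8 rose (38.1%) and 2 fell (9.52%), with 4 rises without control library 2. KLF13 (0.54 ± 0.05), FOXO4 (0.70 ± 0.11) and ID2, an inhibitor of E proteins (0.45 ± 0.05), were among the rises.

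Cytokine signalling genes of the JAK-STAT route were likewise divided, with 7 of 25 higher (28%, against 15.1% of all genes) and 8 lower (32% against 15.5%; 5 lower without control library 2). SOCS3, an inhibitor induced by STAT3, fell from 31.5 and 31.7 to 16.4 and 14.7 CPM (-1.04 ± 0.08), and STAT3 itself by 0.37 ± 0.05. PIM1, a survival kinase that STAT factors induce, rose from 69.2 and 65 to 131 and 115 CPM (0.87 ± 0.07), the interleukin 4 receptor chain IL4R by 0.73 ± 0.06 and the interleukin 10 receptor chain IL10RA by 0.77 ± 0.06. Among 24 nuclear receptor and sterol efflux genes 6 rose (25%) and 4 fell (16.7%). The vitamin D receptor VDR rose from 12.6 and 13.2 to 31.9 and 29 CPM (1.23 ± 0.09). The sterol exporters ABCG1 and ABCA1, known targets of LXR receptors, rose from 6.43 and 6.14 to 21.6 and 23.3 CPM and from 24 and 50 to 62 and 133 reads. The orphan receptors NR4A1 and NR4A3, induced by antigen receptors, fell by 1.06 ± 0.17 and 1.27 ± 0.15.

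Among genes of the machinery that makes ribosomal RNA, tRNAs and proteins, far more fell than rose. Of 35 genes of RNA polymerases I and III and their factors, 16 fell (45.7%) and 2 rose, with a median of -0.16. POLR3G, a polymerase III subunit used in growing cells, fell from 37.7 and 35.5 to 20.4 and 21.3 CPM (-0.81 ± 0.08), while its counterpart POLR3GL rose from 19.5 and 20.2 to 24.3 and 25.1 CPM (0.32 ± 0.08; adjusted p = 0.0584 in DESeq2's test). The other rise was MAF1, the repressor of polymerase III, from 56.2 and 58.1 to 82.3 and 80.8 CPM (0.51 ± 0.06). CD3EAP, a polymerase I subunit, fell by 0.70 ± 0.06. Of 46 translation factors 25 fell (54.3%) and 3 rose (1 without control library 1), with a median of -0.21, such as the initiation factors EIF3B, from 657 and 696 to 499 and 470.3 CPM, and EIF5B, from 181 and 164 to 128 and 112 CPM. Of 39 aminoacyl-tRNA synthetase genes 18 fell (46.2%) and only QARS rose. AIMP2, a scaffold of the synthetase complex, fell by 0.58 ± 0.06. Among all genes 15.5% were lower.

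Few cytosolic ribosomal protein genes were called. Of 77 genes 8 rose (10.4%, against 15.1% of all genes) and 1 fell (1.30% against 15.5%), with a median of 0.08. The number of rises depended on the library, being 2 without control library 1, 4 without treated library 1 and 17 without treated library 2. RPL13A rose from 405 and 426 to 498 and 491 CPM (0.25 ± 0.05) and RPL18 from 779 and 770.3 to 885 and 901 CPM (0.21 ± 0.05), small steps with no overlap. The fall was RPS16 (-0.43 ± 0.11), whose call was lost in DESeq2's test (adjusted p = 0.309). It was also lost without treated library 1, where the log2 fold change was -0.26. More of these genes fell without control library 1.

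Falls also outnumbered rises among genes that supply nucleotides, one-carbon units, polyamines and amino acids. Of 30 nucleotide synthesis genes 19 fell (63.3%, against 15.5% of all genes) and 4 rose (13.3% against 15.1%), with a median of -0.24. ATIC, the bifunctional enzyme of the last steps of purine ring synthesis, fell from 46.5 and 39 to 19.1 and 23.4 CPM (-0.99 ± 0.10), PPAT, which opens that pathway, from 80.04 and 76.6 to 54.9 and 57.5 CPM, and PAICS, between them, from 381 and 379 to 261 and 265 CPM. Among the 4 rises were the thymidine kinase TK1 (0.43 ± 0.07), the ribonucleotide reductase subunit RRM1 (0.24 ± 0.05) and CTPS2 (0.22 ± 0.06; adjusted p = 0.111 without control library 1). Of 21 one-carbon and polyamine genes 10 fell (47.6%) and 2 rose, neither of these without control library 1 or treated library 2. MTHFD1L, which makes formate in mitochondria, fell from 37.1 and 36.5 to 16.7 and 17.8 CPM (-1.08 ± 0.08), the folate carrier SLC19A1 by 0.70 ± 0.11 and the spermidine synthase SRM by 0.64 ± 0.06. Of 24 transporters 11 fell (45.8%), such as the glutamine carriers SLC38A5 (-0.82 ± 0.06) and SLC1A5 (-0.64 ± 0.06) and the nucleobase transporter SLC43A3, from 183 and 188 to 89.4 and 82.5 CPM, and 4 rose (16.7%). The E-box CACGTG, the letters that MYC with MAX is known to bind, was in the 250-base window of 1009 of the 11406 genes (8.85%), of 11.5% of called lower and 8.62% of called higher genes. It was in 26.3% of translation factor windows, 17.2% of polymerase I and III windows, 15.4% of nucleotide synthesis windows and also in 30.3% of lysosome and autophagy windows, a list with more rises than falls. Other lists with more falls than rises varied: 27.8% for transporters, 17.6% for one-carbon, 16.7% for nuclear transport and 11.4% for spliceosome windows. Shares above that of all genes were also found for ERK feedback and MYC network (23.1% each), calcineurin (18.2%) and chromatin modifier windows (15.8%). MicroRNA host and TNF receptor windows had 12.5% and 11.1%. Shares below it were found for NF-kB (7.69%) and inhibitory receptor windows (4.35%). Cytokine, costimulation, JAK-STAT, B-lineage factor, germinal center, RGS and EGR windows had 0%. Aminoacyl-tRNA synthetase and mitochondrial protein import windows, at 9.38% and 9.09%, were near the share of all genes. The motifs TGACGTCA (CREB) and GTAAACA (FOXO) were searched in the same way and were in 2.81% and 1.94% of all windows, in 3.61% and 1.97% of called lower and in 2.52% and 2.69% of called higher genes. The windows of ATIC and MTHFD1L are shown because these enzymes had the largest falls of their lists; capitals mark the E-box.
ATIC (chr2:215311809-215312058, plus strand, motif beginning 46 bases before the start): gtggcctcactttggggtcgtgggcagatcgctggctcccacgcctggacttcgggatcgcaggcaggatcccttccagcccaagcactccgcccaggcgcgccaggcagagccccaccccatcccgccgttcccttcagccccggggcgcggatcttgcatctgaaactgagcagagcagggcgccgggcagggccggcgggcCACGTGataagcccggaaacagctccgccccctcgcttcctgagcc
MTHFD1L (chr6:150866236-150866485, plus strand, motif beginning 154 bases before the start): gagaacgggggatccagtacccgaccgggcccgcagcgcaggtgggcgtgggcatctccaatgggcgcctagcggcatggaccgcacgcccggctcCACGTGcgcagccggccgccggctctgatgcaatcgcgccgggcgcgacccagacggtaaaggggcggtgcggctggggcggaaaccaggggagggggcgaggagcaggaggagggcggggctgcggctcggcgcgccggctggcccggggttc

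Genes of transport into mitochondria and the nucleus held many falls and few rises. Of 25 mitochondrial protein import genes 18 fell (72.0%, against 15.5% of all genes) and 0 rose in edgeR, DESeq2, limma-voom or at an unadjusted p under 0.05, with a median of -0.24: TOMM40, the outer membrane channel, went from 202 and 210.2 to 149 and 133 CPM (-0.55 ± 0.06) and the small inner membrane chaperone TIMM8A from 20.5 and 22.9 to 15.5 and 13.7 CPM. Of 41 nuclear transport genes 24 fell (58.5%) and the pore membrane protein NUP210 rose, though not without control library 2 (adjusted p = 0.126). The importin IPO4, which carries histones and ribosomal proteins, fell from 114 and 112 to 71.5 and 67.1 CPM (-0.70 ± 0.06), the pore component NUP160 by 0.54 ± 0.05 and RCC1, the exchange factor of RAN, by 0.52 ± 0.05. Of 49 spliceosome and SR protein genes 18 fell (36.7%) and 2 rose, with 11 falls without control library 1, and no rise without either control library. PRPF19, a core ubiquitin ligase of the spliceosome, fell by 0.40 ± 0.05.

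Of 46 lysosome and autophagy genes 12 rose (26.1%, against 15.1% of all genes) and 7 fell (15.2%, about the 15.5% of all genes), with a median of 0.07. Without control library 1 these were 7 and 4, and DESeq2's test called 5 rises. The autophagosome protein GABARAPL1 rose from 10.9 and 11 to 16.7 and 17.8 CPM (0.66 ± 0.09) and the lipid scramblase ATG9A from 18.5 and 22.6 to 31.4 and 30.7 CPM (0.59 ± 0.09); the protease CTSZ fell by 0.57 ± 0.05. Of 26 KLHL and related adaptors 8 rose (30.8%; 5 rose without control library 1 or without control library 2) and 2 fell (7.69%). KLHL6, which is mutated in B-cell lymphomas, rose from 72.8 and 75.6 to 116 and 112 CPM (0.62 ± 0.05) and KLHL24 by 0.79 ± 0.09. Of 42 chromatin modifiers 6 rose (14.3%) and 7 fell (16.7%), shares close to those of all genes. The member with the smallest p was the class II deacetylase HDAC7, from 107 and 109 to 185 and 189 CPM (0.80 ± 0.05), a level at which replicates differed by little. Clock genes were called about as often as all genes (29.4% against 30.6%): of 17, 3 rose and 2 fell, among them the kinase CSNK1E, from 131 and 126 to 238 and 224 CPM (0.85 ± 0.05), and the repressor BHLHE40, whose controls stood at 65.1 and 86.9 CPM and whose treated libraries stood at 28.5 and 43.2 CPM (-1.05 ± 0.15). The rises numbered 1 without treated library 2.

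**Figure D3:**
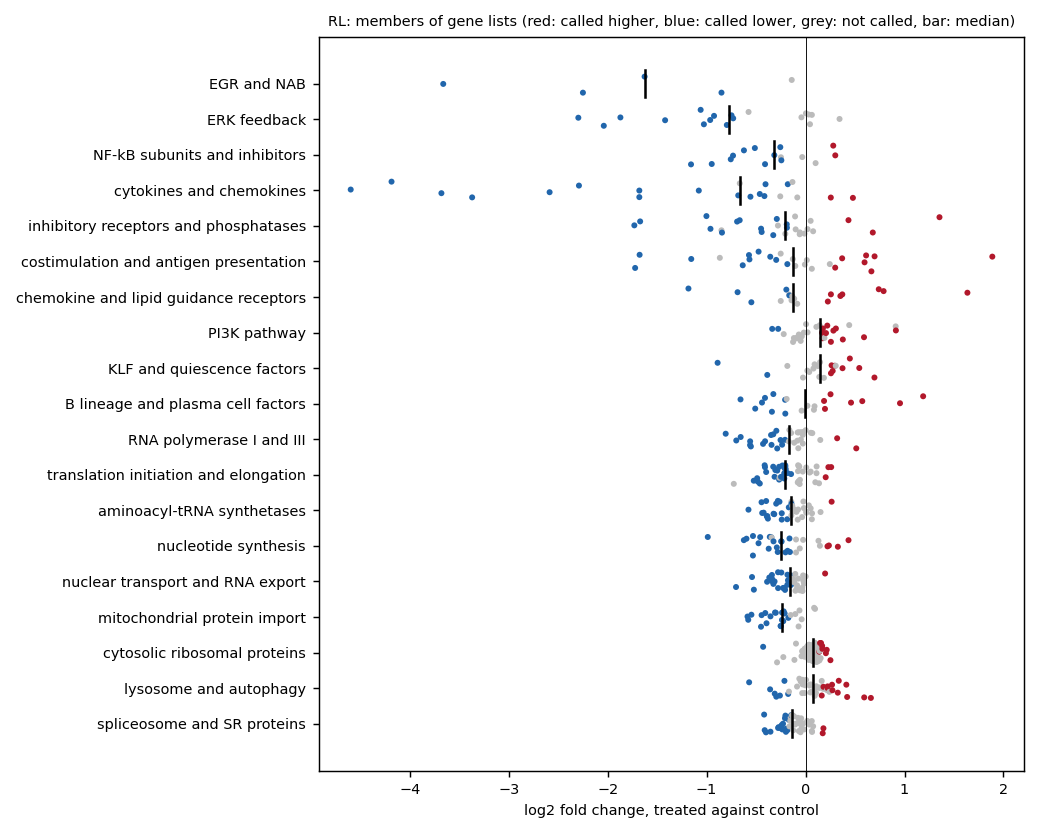
Log2 fold change (treated against control) of every tested member of the gene lists named on the vertical axis in RL, 1 point a gene, red if called higher, blue if called lower and grey otherwise, with a black bar at the list's median. The EGR, ERK feedback and cytokine lists reach furthest to the left, while translation, nucleotide and import genes form narrow groups just left of 0 and the ribosomal proteins sit close to 0.

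Genes represented by a noncoding transcript had a lower share of calls than all genes: of 1575 tested, 312 were called (19.8% against 30.6%), 149 higher and 163 lower. These shares were not matched for read level, with which the share of calls rose. The called noncoding genes included hosts of microRNAs known from B-cell lymphoma. MIR155HG, the host of miR-155, a microRNA that activated B cells induce, fell from 188 and 168 to 56.4 and 79.7 CPM (-1.37 ± 0.11), and the reads over the hairpin gene MIR155 inside it fell from 25 and 27.8 to 11.3 and 12.1 CPM (-1.17 ± 0.09). Treated library 2 was higher than treated library 1 for the host, but both were below both controls. MIR17HG, the host of the miR-17-92 cluster and a known MYC target, fell from 282 and 235 to 156 and 182 CPM (-0.61 ± 0.08). These libraries measured host RNA, and mature microRNAs were not measured. MIAT, a long noncoding RNA, rose from 134 and 142 to 259 and 240.3 CPM (0.85 ± 0.06). The snoRNA hosts SNHG3 (-0.60 ± 0.06) and SNHG4 (-0.79 ± 0.08) fell, and PVT1, the neighbour of MYC, by 0.41 ± 0.08. GTF2IP1 and LOC100093631 carried identical counts and cannot be told apart (0.97 ± 0.08). C14orf132 (0.69 ± 0.06) and C7orf40 (-0.75 ± 0.07) were further called genes of this kind, and the transcripts kept for IL10RA and RCC1 have noncoding accessions although both genes encode proteins. The mature microRNAs of the 2 hosts are given from RefSeq (GRCh38.p14), since their targets are set by the seed, bases 2 to 8, in capitals; miR-17-5p and miR-20a-5p share one seed, and miR-19a-3p and miR-19b-3p another.
miR-155-5p (chr21:25573983-25574006, plus strand): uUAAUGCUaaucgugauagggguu
miR-17-5p (chr13:91350618-91350640, plus strand): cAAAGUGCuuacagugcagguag
miR-20a-5p (chr13:91351072-91351094, plus strand): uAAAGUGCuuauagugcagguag
miR-18a-5p (chr13:91350756-91350778, plus strand): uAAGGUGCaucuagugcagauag
miR-19a-3p (chr13:91350939-91350961, plus strand): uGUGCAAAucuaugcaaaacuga
miR-19b-3p (chr13:91351245-91351267, plus strand): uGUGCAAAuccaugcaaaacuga
miR-92a-3p (chr13:91351361-91351382, plus strand): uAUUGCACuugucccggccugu

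The genes with the largest differences in mean CPM, a scale on which long and abundant RNAs weigh most, were mostly abundant RNAs that changed by less than 2-fold. Among the rises were RPPH1, the RNA of ribonuclease P, from 4766 and 4871 to 6100.4 and 6129.5 CPM (0.34 ± 0.05), the BCR chain CD79B, from 668 and 628 to 1345 and 1309.7 CPM (1.03 ± 0.05), and the ETS factor ETS1, from 1011 and 964 to 1500.0 and 1437 CPM (0.57 ± 0.05). The topoisomerase TOP2A (0.34), the linker histones HIST1H1B (0.32) and HIST1H1C (0.34), the spectrin SPTBN1 (0.46) and the elongation factor EEF2 (0.26) were others, all with small fold changes. Among the falls were the chaperone HSPA8, from 6455 and 6349.5 to 4677 and 3861 CPM (-0.58 ± 0.07), the nucleolar protein NCL, from 1366 and 1359 to 882 and 868 CPM (-0.64 ± 0.05), the stress chaperone HSP90AA1, from 1909 and 1722 to 1145 and 1044 CPM (-0.73 ± 0.06), and MPEG1, a pore-forming protein of phagocytes, from 866 and 849 to 449.7 and 447 CPM (-0.94 ± 0.05). The nuclear RNA MALAT1 (-0.29), the actin bundler LCP1 (-0.23), the calcium-binding chaperone CALR (-0.52) and ODC1, which opens polyamine synthesis (-0.60), also fell. RMRP and TCF4 (higher) and ACTB and ACTG1 (lower) completed the 20, and each lost its call when at least 1 library was left out. RMRP and ACTG1 lost theirs without control library 1 (adjusted p = 0.0887 and 0.110), TCF4 without control library 2 (0.0998), and ACTB without each library in turn (0.0642 to 0.154).

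Genes that changed strongly often lay beside genes that changed the same way. With genes ordered along the GRCh38 RefSeq annotation, which was used for order only, the 30 genes with the largest changes had 60 neighbour entries, of which 29 (48.3%) were called in the same direction, 7 in the opposite one and 24 not at all. Some of the 29 are chosen genes that lie side by side and count each other, such as CCL3 with CCL4 and ZBTB48 with KLHL21. The choice of genes thus raised the 48.3%. Over all called genes, 25.7% of the neighbours of a higher gene were higher and 11.2% lower, and 23.3% of the neighbours of a lower gene were lower and 10.9% higher. Uninterrupted runs of at least 5 tested genes called the same way numbered 24, 15 higher and 9 lower; the loci described next were chosen after their values were seen. On chromosome 1 a run of 7 rises held TNFRSF25 (a death receptor, 0.82), PLEKHG5 (1.17), NOL9 (a kinase of ribosomal RNA processing, 0.83), TAS1R1 (3.32), ZBTB48 (a telomere-binding factor, 1.87), KLHL21 (2.10) and PHF13 (a chromatin reader, 0.66). The tested genes on either side were not higher; ACOT7 (-0.22) was lower, but not without control library 1 or treated library 2 (adjusted p = 0.234 and 0.210). The call of TNFRSF25 was lost in DESeq2's test (adjusted p = 0.104). On chromosome 9, FGD3 (1.36), SUSD3 (2.13), C9orf89 (1.30), NINJ1 (1.63) and WNK2 (1.62) rose side by side. NINJ1, a membrane protein of cell lysis and adhesion, went from 19.7 and 17.1 to 59.4 and 55 CPM and the kinase gene WNK2 from 5.89 and 5.37 to 18 and 16.8 CPM. On chromosome 11 the sodium pump regulators FXYD2 (0.79) and FXYD6, from 39.1 and 36.2 to 144 and 136 CPM, rose with TMPRSS13 and IL10RA.

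Other runs included 9 rises on chromosome 12, from OAS2 to SLC24A6, with a median of 0.69. In it DTX1, a ubiquitin ligase induced by NOTCH, rose from 82.4 and 78.9 to 186 and 192 CPM (1.23 ± 0.05) and RASAL1, which inactivates RAS, from 21 and 20.9 to 54.1 and 50.3 CPM (1.31 ± 0.07). On chromosome 22 the 5 cytidine deaminase genes from APOBEC3B to APOBEC3G rose by a median of 0.58, although they are similar in sequence and can share reads; the call of APOBEC3B was lost without any 1 of the 4 libraries (adjusted p = 0.0575 to 0.124) and in DESeq2's test. APOBEC3G went from 14.6 and 15.6 to 21.7 and 23.3 CPM (0.58 ± 0.08). On chromosome 21 a run of 6 falls around MIR155HG took in LINC00158 (-1.45), C21orf71 (-1.10; adjusted p = 0.0548 in DESeq2's test), MRPL39 (-0.23; adjusted p = 0.0592 without control library 2) and JAM2 (-0.59), and on chromosome 11 the adhesion receptor CD44 (-0.80) fell with SLC1A2 (-2.13), FJX1 (-1.71), TRIM44 (-0.26) and LDLRAD3 (-1.20). Members of some runs may not be separate measurements. The 10 falls on chromosome 1 at GAS5 are mostly snoRNAs inside that host, and whether they share its reads was not tested. GAS5 itself had a log2 fold change of -0.28, against a run median of -0.76. Further, 5 of the runs of rises are histone clusters on chromosome 6 with near-identical members. With a kit blind to strand, reads that run past a gene into the next cannot be told from those of the next.

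**Figure D4:**
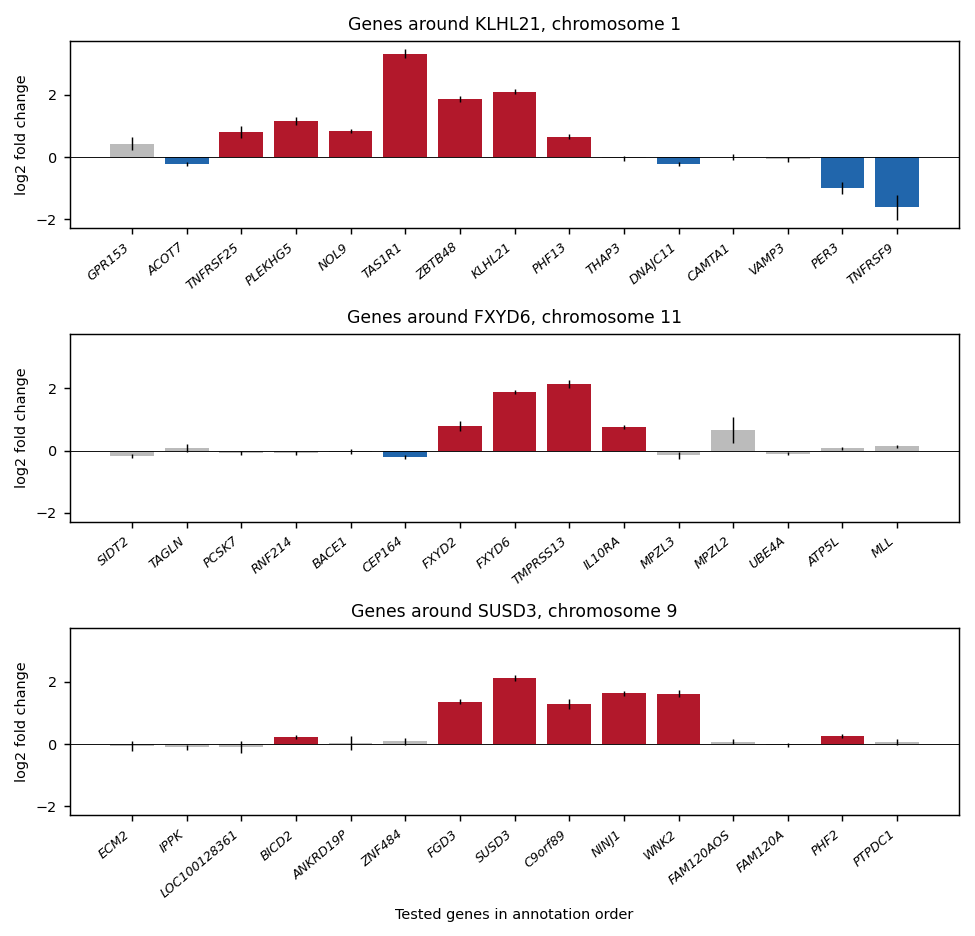
Log2 fold change (treated against control, bars are standard errors) of tested genes in annotation order around KLHL21 on chromosome 1, FXYD6 on chromosome 11 and SUSD3 on chromosome 9 in RL; red was called higher, blue lower and grey neither. Each panel shows a block of adjacent rises, 7, 4 and 5 genes long, and the genes directly beside each block lie near or below 0.

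Tested transcript by transcript, 7786 of 25099 (31%) were called, and 2 genes had transcripts called in opposite directions. MXD3, an antagonist of MYC, had its main transcript slightly lower (-0.18 ± 0.06) and a less abundant one higher (1.39 ± 0.12), at 3.85 and 3.0 CPM in the controls and 9.01 and 8.91 CPM in the treated libraries. The main transcript's fall lost its call without control library 2 or treated library 2. With 1 library left out, 1 such gene remained without control library 1 or treated library 1 and 0 without control library 2 or treated library 2. Since transcripts of a gene share reads, these values describe how reads fell on the models and not separate molecules.

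The RL response differed from that of JeKo-1 at many genes. In a fit of all 7 libraries, the difference of the inhibitor's effects was called for 2816 of 15843 genes (17.8%), 1405 higher and 1411 lower in RL. Of the 4563 genes called in RL, 1680 (36.8%) differed between the lines. MYC, at 40.4 and 35.2 and 5.98 and 6.77 CPM in RL, had a log2 fold change of -0.08 ± 0.07 in JeKo-1 (difference -2.48 ± 0.12, adjusted p = 1.61e-12). PTPN6 fell in RL by 1.67 ± 0.06 and had -5.39 ± 0.09 in JeKo-1 (difference 3.71 ± 0.12), so its fall was smaller in RL. KLHL21, SLC2A5 and TAS1R1, which rose in RL, had -0.19 ± 0.10, -0.16 ± 0.09 and -0.19 ± 0.78 in JeKo-1. SLC16A9, a fall in RL, had 4.08 ± 0.47 in JeKo-1, and CD83 and DUSP2, with -1.72 and -1.87 in RL, had -1.36 ± 0.09 and -1.43 ± 0.10, so that these last differed by less than the others. JeKo-1 had 1 control library, and every difference from that line rests on it. The spread of that group could not be measured and was taken from the other groups.

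**Figure D5:**
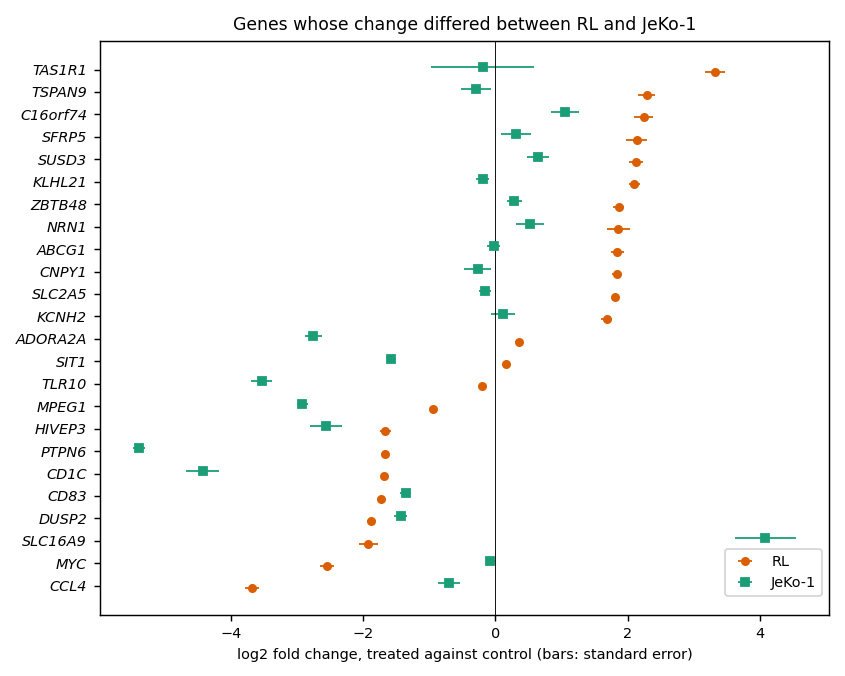
Log2 fold change (treated against control, bars are standard errors) in RL (orange circles) and JeKo-1 (green squares) for 24 of the named genes whose change differed between the lines in the fit of all 7 libraries. Most of the genes with rises in RL sit near 0 in JeKo-1, whereas PTPN6, CD1C, TLR10, MPEG1 and ADORA2A lie further to the left in JeKo-1.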

How the data were processed

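RNA was sequenced from 4 RL and 3 JeKo-1 libraries prepared with the TruSeq RNA kit of Illumina, a kit blind to strand. The submitters' processing notes list BWA, CASAVA 1.8 and Partek 6.6 and the build hg19 (GRCh37) without saying what each did. Read counts are what the authors deposited, per the file headers, of every library for 34917 RefSeq transcripts of 22257 genes. These raw counts were used as deposited, and 0 other per-library columns were needed; the authors' normalized values, ratios, p-values and joint fold table were not used. Of each gene the transcript with most reads on average over the 4 RL libraries was kept, since transcripts of a gene repeat reads. Per gene, libraries held 19.1 to 33.5 M reads in RL and 23.3 to 24.4 M in JeKo-1. Counts were scaled by TMM, filtered by filterByExpr and tested with edgeR 4.0.16 (glmQLFit, glmQLFTest) in R 4.3.3, without a replicate block, with Benjamini-Hochberg adjustment over all 14933 genes tested. A standard error is the absolute log2 change over the square root of F. RL had 2 residual degrees of freedom and a biological coefficient of variation of 4.46%. The difference between lines was a contrast in a 4-group fit with 3 residual degrees of freedom. With 2 libraries against 2, an exact permutation test of a single gene cannot go below 0.333 and was not used. Reads of a library are not all independent molecules, so counting error is only part of the spread. Replicate numbers are shared by the groups, but nothing in the labels pairs the libraries, and deviations of same-numbered libraries did not correlate (r = -0.00865, across genes).

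The 40 gene lists (981 distinct symbols, 975 in the table and 923 tested) and the named genes were chosen with earlier results of these data known. Genes named are the 15 called genes each way with the largest change at a mean of at least 5 CPM, the 10 largest changes in mean CPM each way, list members (4 with the smallest p, or more where a list is described), genes with transcripts called both ways, up to 10 noncoding genes, the 8 with the smallest p of the difference between lines, and neighbours of named genes. The 15 each way were taken only from genes whose treated libraries both lay on 1 side of both controls. Lists are given as counts beside those of all genes, with no set test and no matching for read level, on which calls depend. Alternatives were other size factors, no filter, DESeq2 1.42.0, limma 3.58.1 (voom), a replicate block, all transcripts together, all 7 libraries together, and each library left out. Promoter and microRNA sequences come from RefSeq (GRCh38.p14); 11406 tested genes had a promoter entry. The tests were tested on simulated counts with known changes, placed only in genes above a minimum of reads. In the RL gene test, 9 of 50 changes of log2 0.25 were called, 44 of 50 of log2 0.5 and 49 of 50 of log2 1. For the difference between lines these were 5, 28 and 47 of 50. Changes near log2 0.25 were thus mostly missed there. Results for a few genes are not reported here.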

Additional observations from a re-analysis of the deposited data

Results flagged for a closer look

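Genes named in the text were compared between RL and JeKo-1 by the test of the difference in the 7-library fit. That test called 17.8% of all genes and 36.8% of the genes called in RL. The 220 named genes include 8 chosen by this same difference and others chosen for their change in RL. How many of them differed was therefore partly set by the choice. Values are given for 24 that differed, taken from the 15 largest rises, the 15 largest falls and the 8 differences with the lowest p. Another 108 named genes differed, by -5.64 to 2.87. The value for each is the log2 fold change in RL minus that in JeKo-1, so a positive value means a larger rise or a smaller fall in RL. JeKo-1 had 1 control library, and no explanation of these differences was tested.

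The genes given here for a large rise in RL had positive differences, a sign that this choice favours. They were TAS1R1 3.51 ± 0.95, TSPAN9 2.57 ± 0.27, KLHL21 2.29 ± 0.13, CNPY1 2.10 ± 0.23, SLC2A5 1.96 ± 0.11, ABCG1 1.86 ± 0.14, SFRP5 1.81 ± 0.29, ZBTB48 1.57 ± 0.14, KCNH2 1.56 ± 0.21, SUSD3 1.48 ± 0.21, NRN1 1.32 ± 0.28 and C16orf74 1.18 ± 0.28. CD9 (-0.07 ± 0.22) and TMPRSS13 (2.28 ± 1.13), also among the largest rises, were not called as different. FXYD6 was not called either, and its difference of 1.89 had a standard error of 4060, so it could not be judged. Other named genes that rose in RL had negative differences, among them TNFRSF17 (-0.85 ± 0.13), SPTBN1 (-0.79 ± 0.08), VDR (-0.71 ± 0.22) and ETS1 (-0.42 ± 0.08). ADORA2A, an adenosine receptor, and SIT1, a signalling adaptor of lymphocytes, rose slightly in RL and had negative changes in JeKo-1, with differences of 3.09 ± 0.15 and 1.73 ± 0.09. TLR10, a receptor of the Toll-like family, and MPEG1 fell in RL by less than in JeKo-1, with differences of 3.33 ± 0.17 and 1.97 ± 0.09. The same held for PTPN6 (3.71 ± 0.12), CD1C (2.74 ± 0.29) and HIVEP3 (0.89 ± 0.28). MYC (-2.48 ± 0.12), CCL4 (-2.99 ± 0.22), DUSP2 (-0.45 ± 0.13) and CD83 (-0.37 ± 0.11) fell by more in RL. SLC16A9, a transporter, fell in RL while its log2 fold change in JeKo-1 was 4.08 ± 0.47, a difference of -6.01 ± 0.45.

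In RL, the calls of SIT1 and TLR10 were not stable to leaving out a library: SIT1 had an adjusted p of 0.0692 to 0.201 without control library 1, control library 2 or treated library 2 in turn, and TLR10 of 0.0599 without control library 1.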

How the results depend on the processing

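The counts of genes called in RL moved with the test more than with the scaling. DESeq2's Wald test called 1321 genes higher and 1544 lower in place of 2255 and 2308, and all 2865 of its calls were also called by edgeR. Other size factors, no filter, limma-voom, all transcripts together and the fit of all 7 libraries gave 2129 to 2478 higher and 2287 to 2634 lower. With 1 library left out, 1690 to 2045 genes were higher and 1871 to 2205 lower, sharing 72.2% to 83.2% of the calls. Counts of at least 2-fold changes stayed within 1.5 times under every alternative run (161 to 247 higher, 147 to 224 lower). For the difference between lines DESeq2 called 761 genes higher in RL in place of 1405, and leaving out a library gave 970 to 1469 higher and 948 to 1464 lower. Genes with transcripts called both ways numbered 0 to 1 with a library left out, in place of 2. With replicate number as a block, 2314 genes were higher and 2371 lower, sharing 97.9% of the calls; since no label pairs the libraries and same-numbered ones did not deviate together, this pairing has no support in the design, and no other pairing was tried. Of the 80 list counts, DESeq2 moved 17 by over 1.5 times, limma-voom 0 and leaving out a library 24. Beside those given with each list, DESeq2 called 4 rises of costimulation, 2 of TNF receptors and 5 of KLHL adaptors, and 3 falls of guidance receptors and 1 of the MYC network. Further moved counts included 1 fall each of PI3K and KLF genes and 4 falls of lysosome genes. One-carbon and spliceosome genes had 1 rise each in that test. The log2 fold change of SOX11 in RL, which was not called, changed sign with a library left out (-0.0801 to 0.133). Of 267 named genes called in RL, 18 lost the call in DESeq2's test, 25 with a library left out, and 0 changed direction. A gene without an adjusted p in DESeq2, such as DUSP4, was not counted as having lost its call. Depth limits the low genes most: called genes averaging under 1 CPM had a median absolute log2 change of 1.49, so smaller changes there were often not detectable.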
